A study of Homo sapiens with 32 samples.

Results

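The comparison described here is that of 4 clones lacking the ERH contact site of DGCR8 with 4 wild-type clones. The libraries came from cells that had received non-targeting shRNAs, so ERH was not targeted, though its level was not measured. All 16 control-shRNA libraries were used, of 32 in the series, and every one of the 1513 miRNA precursor rows of the count table was considered. The cells were 293T, a human embryonic kidney line with epithelial features. In deletion clones 30, 34, 42 and 43 residues 103 to 126 of DGCR8 had been removed by prime editing, a method that rewrites a stretch of the genome from a template carried by the guide RNA, whereas clones 52, 55, 57 and 67 had the unedited gene. Every clone was transfected with vectors for control shRNA 1 or control shRNA 2, selected with puromycin, and sorted on day 5 for the vector's fluorescent marker before RNA isolation. The other 16 libraries came from the same 8 clones after transfection with ERH shRNA 1 or 2, and serve below for values set side by side. Each genotype is represented by separate clones, so differences between clones that have nothing to do with the edit are part of the spread, and the clone (the sum of its 2 control libraries) was the unit of replication.

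DGCR8 is the RNA-binding partner of DROSHA, and together they form the Microprocessor, the nuclear complex that cuts hairpins out of primary miRNA transcripts. A hairpin cut in this way is exported, trimmed by DICER and loaded into an Argonaute protein, where bases 2 to 8 of the mature miRNA (the seed) pair with target messenger RNAs. Many hairpins lie alone in the intron of a protein-coding gene, while others share a transcript with neighbours. ERH is a small dimeric nuclear protein that binds the amino-terminal part of DGCR8 and has been reported to help the Microprocessor with hairpins that are poor substrates beside a good one.

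Mature sequences are given for the miRNAs that carry the differences, 5′ to 3′, with the seed in capitals. They are those of RefSeq (GRCh38.p14), which held a mature sequence for 485 of the 536 tested rows. A row of the count table pools both arms of a hairpin, so the arm that changed is not known and the sequences show what the row can contain. The first set rose in deletion clones. It holds miR-7, the most abundant riser, and 5 products of hairpins in introns, one of them of the mir-548 family.
miR-7-5p: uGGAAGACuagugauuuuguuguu
miR-624-5p: uAGUACCAguaccuuguguuca
miR-548t-5p: cAAAAGUGaucgugguuuuug
miR-616-5p: aCUCAAAAcccuucagugacuu
miR-3145-5p: aACUCCAAacacucaaaacuca
miR-3611: uUGUGAAGaaagaaauucuua
The second set fell. In it miR-15b and miR-16 have the same seed, as do miR-103a and miR-107, which differ elsewhere.
miR-15b-5p: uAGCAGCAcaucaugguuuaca
miR-16-5p: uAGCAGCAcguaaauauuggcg
miR-103a-3p: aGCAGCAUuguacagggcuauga
miR-107: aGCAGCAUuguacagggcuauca
miR-125a-5p: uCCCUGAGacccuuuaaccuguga
miR-130b-3p: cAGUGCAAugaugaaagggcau
miR-187-3p: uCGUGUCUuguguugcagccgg
miR-1306-3p: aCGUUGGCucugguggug
Entire hairpins are shown for 2 genes, with the mature arms in capitals, because hairpin composition enters the results below. The mir-3145 hairpin rose and has a GC content of 31.7%. The mir-15b hairpin fell, although its GC content of 36.7% is also low, and it shares a transcript with mir-16.
mir-3145 hairpin: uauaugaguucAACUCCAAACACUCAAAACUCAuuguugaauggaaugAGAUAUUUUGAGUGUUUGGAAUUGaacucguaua
mir-15b hairpin: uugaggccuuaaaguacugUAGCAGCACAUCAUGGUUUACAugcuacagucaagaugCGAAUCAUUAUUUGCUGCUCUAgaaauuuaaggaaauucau

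The 16 libraries held 1789085 to 2818603 miRNA counts each, with a median of 2395713, and 683 to 855 precursor rows with at least 1 count. The row mir-16 made up 14.5% to 19.5% of a library. No messenger RNA was measured, so neither the edit nor ERH was checked. Of 15 precursors that mark other tissues, none was at 0 in all 8 clone sums. Their summed level was 4572 to 7934 CPM, the count scaled to a common library size, in wild-type and 2982 to 7776 CPM in deletion clones, most of it mir-126. The blood-cell markers mir-142 and mir-223 were high in deletion clones 30 and 34. The level of mir-142 was 160 to 336 CPM in wild-type clones and 1872, 660, 290 and 145 CPM in deletion clones 30, 34, 42 and 43, and that of mir-223 was 9.59 to 25.9 CPM against 224, 72.2, 26.4 and 9.51 CPM. In clone 30 the library of control shRNA 2 had mir-223 at 395 CPM of its raw miRNA counts and that of control shRNA 1 at 73.5 CPM. The row mir-223 passed the test (log2 fold change 2.33, edgeR adjusted p = 0.0381), but the genotypes overlapped and the call was lost without clone 30, 34, 52, 57 or 67. The row mir-155, abundant in activated blood cells and named after its values were seen, was at 1.33 to 2.71 CPM in wild-type and 19.3, 5.73, 3.45 and 1.64 CPM in deletion clones (log2 fold change 2.10, edgeR adjusted p = 0.043), with overlap, and its call was lost without clone 30 or 34 or any 1 wild-type clone. The erythroid marker mir-451a had another order, at 7.30 to 18.2 CPM and 7.20, 24.6, 14.6 and 2.62 CPM. Whether other RNA in these libraries bears on the results was not tested. Counts without both clones are therefore given for the totals, the mir-548 family, the GC classes, and the clustered and single hairpins. In bulk libraries fewer molecules per cell and fewer cells with a molecule cannot be told apart.

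The deletion clones had more of many scarce miRNAs and less of many abundant ones. Of 536 rows that passed the filter on low counts, 101 were higher in deletion clones (18.8%) and 38 lower (7.09%), 139 in all (25.9%; edgeR quasi-likelihood test, Benjamini-Hochberg adjusted p under 0.05). The median log2 fold change was 1.27 among the higher rows and -0.72 among the lower ones. The median level over all clones was 27.6 CPM for the higher rows and 2465 CPM for the lower ones. Among the higher rows 92 differed by more than 2-fold, and among the lower ones 11. The genotypes did not overlap in 155 rows (28.9%), which include 89 of the 101 higher and 31 of the 38 lower rows. Without clones 30 and 34, a choice made after seeing the data, 31 rows were higher and 8 lower in a comparison of 2 clones with 4. Without clone 34 alone the counts were 65 and 18.

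**Figure D1:**
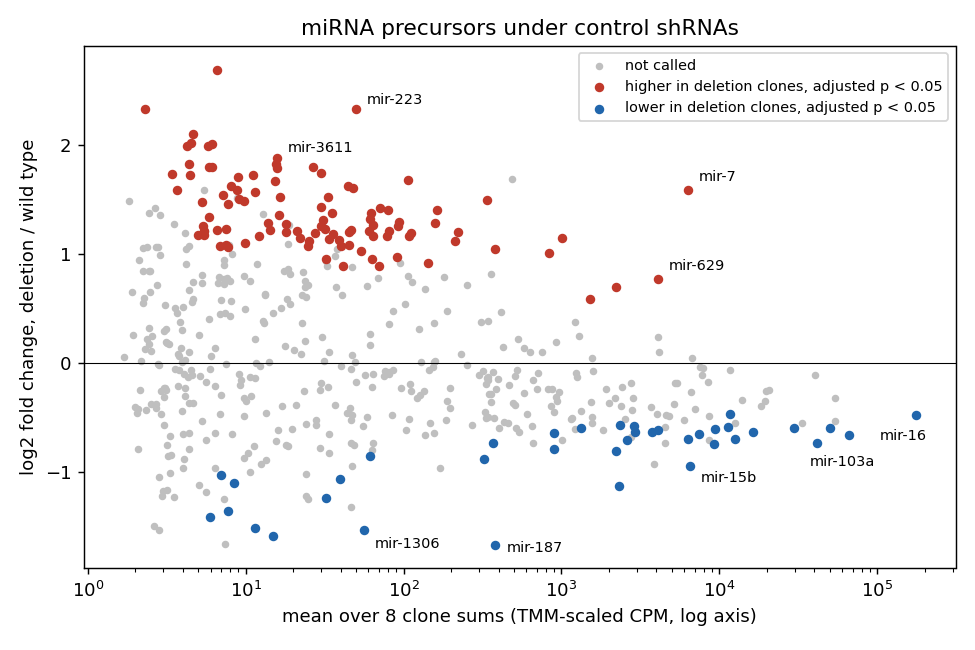
Each point is one of 536 miRNA precursor rows, with its mean level over 8 clone sums on a logarithmic horizontal axis (CPM) and its log2 fold change, deletion over wild type, on the vertical axis. The 101 higher rows (red) lie mostly at low levels and the 38 lower rows (blue) mostly at high levels, with mir-7 as the abundant exception among the higher ones.

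The split between higher and lower depended on how libraries were scaled. TMM, the scaling used, sets the bulk of rows equal. Its factors, which multiply library sizes, were 0.817 to 0.930 in wild-type and 1.06 to 1.30 in deletion clones. It thus lowered the CPM of deletion clones relative to wild-type ones, and overlap of genotypes in CPM is judged on TMM-scaled values throughout. With TMM the median log2 fold change of all tested rows was -0.03. Scaling by the 4 spike-in RNAs moved that median to 0.42 and gave 134 higher and 0 lower rows, and scaling by total miRNA counts moved it to 0.39 and gave 154 and 4. Spike-in RNA 1 made up 91.6% to 93.3% of the spike-in counts of a library, so it largely set the spike-in scaling. The log2 ratio of miRNA to spike-in counts varied between clones, with an SD of 0.30 in wild-type and 0.525 in deletion clones. The GC correction, which removes a trend of each clone's counts with hairpin GC content whatever its origin, gave 51 higher and 60 lower. Of the 101 higher rows, 101 stayed above 0 with spike-in scaling, and 36 of the 38 lower rows stayed below 0. "Higher" and "lower" are thus relative to the typical row in what follows. Shares of the raw counts do not use TMM, but they divide by a clone's total of miRNA counts and so amount to total miRNA scaling. The higher rows supplied 0.994% to 1.15% of the miRNA counts of a wild-type clone and 3.00% to 3.83% of those of a deletion clone, and the lower rows 47.0% to 53.0% and 42.9% to 47.4%. The first ranges did not overlap and the second did. Both sets were chosen from these libraries, so the shares describe them and are no test. The total of miRNA counts relative to spike-in counts did not separate the genotypes, with a difference of 0.011 on the log2 scale (exact permutation test, two-sided, p = 1.00, n = 4 and 4).

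Of the 5 most abundant higher rows, mir-7 had the largest fold change. It is a highly conserved miRNA known from neurons and endocrine cells and as the partner of the circular RNA CDR1as, and its mature 5′ product, shown above, comes from 3 loci. These lie on chromosome 9 (83969748 to 83969857, within HNRNPK), chromosome 15 (88611825 to 88611934, in no annotated host) and chromosome 19 (4770670 to 4770779, in an intron of MIR7-3HG), by GENCODE on GRCh38. Its level was 3919, 2637, 3341 and 2785 CPM in wild-type clones 52, 55, 57 and 67, and 11670, 10930, 8169 and 7327 CPM in deletion clones 30, 34, 42 and 43. Every deletion clone was above every wild-type clone, with means of 9525 ± 2102 and 3170 ± 584 CPM (SD, n = 4 each). The log2 fold change was 1.59 ± 0.21 (SE, edgeR adjusted p = 0.0021). It was 2.13 with spike-in scaling and 1.52 after the GC correction, between 1.48 and 1.71 when any 1 clone was left out, and past the threshold in each of the 20 alternatives run. The table does not separate the 3 loci. Beside the chromosome 15 locus lies mir-1179, which was scarce and did not pass the test, at 3.76 ± 3.14 CPM in wild-type and 5.41 ± 1.05 CPM in deletion clones (SD, n = 4). The deletion clones have the same order by mir-7 as by mir-142, mir-223 and mir-155, and the part of this in the result was not tested. Without clones 30 and 34 mir-7 still passed the threshold, and of the remaining deletion clones clone 42 had mir-223 and mir-155 just above the highest wild-type clone.

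Many other risers were hairpins in introns of protein-coding genes, where many of the tested rows lie. Of the 256 tested rows there 67 were higher (26.2%), against 101 of all 536 (18.8%). Among the 14 named for the size of their change, which were at least at 10 CPM and did not overlap, log2 fold changes ran from 1.52 to 1.88. These were mir-3611, mir-3145, mir-5583, mir-616, mir-548an, mir-1255b, mir-624, mir-548au, mir-548aa, mir-548t, mir-7, mir-548u, mir-548l and mir-3158. Leaving out any 1 clone lost none of the 14 calls. For few of them is a function established, and they are described here by their host genes.

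The row mir-624, in an intron of STRN3 on chromosome 14 (31014646 to 31014742), had 59.0, 67.5, 31.2 and 44.1 CPM in the wild-type clones and 143.9, 159.5, 134.8 and 207.7 CPM in the deletion clones (log2 fold change 1.68 ± 0.30, SE, edgeR adjusted p = 0.00796). All deletion clones were at least at 134.8 CPM and no wild-type clone was above 67.5 CPM. For mir-3145, in an intron of NHSL1 on chromosome 6 (138435213 to 138435294), the values were 5.03 to 11.3 CPM in wild-type and 23.5, 23.9, 28.4 and 21.8 CPM in deletion clones. Here the deletion clones were closely grouped and wild-type clone 57, at 11.3 CPM, was the highest of its genotype. The row mir-616, in an intron of DDIT3 (chromosome 12, 57519163 to 57519259), was at 4.93 to 9.36 CPM in wild-type and 15.1 to 41.0 CPM in deletion clones. Clone 42 stood highest and the genotypes did not overlap. The row mir-3611, in an intron of CUL2 on chromosome 10 (35079598 to 35079680), had 7.68, 8.13, 8.29 and 2.88 CPM in wild-type and 31.4, 12.9, 24.3 and 30.7 CPM in deletion clones. Its hairpin has the lowest GC content of the named risers, at 26.5%, and its call was lost after the GC correction, as were those of mir-3145 and mir-548u.

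**Figure D2:**
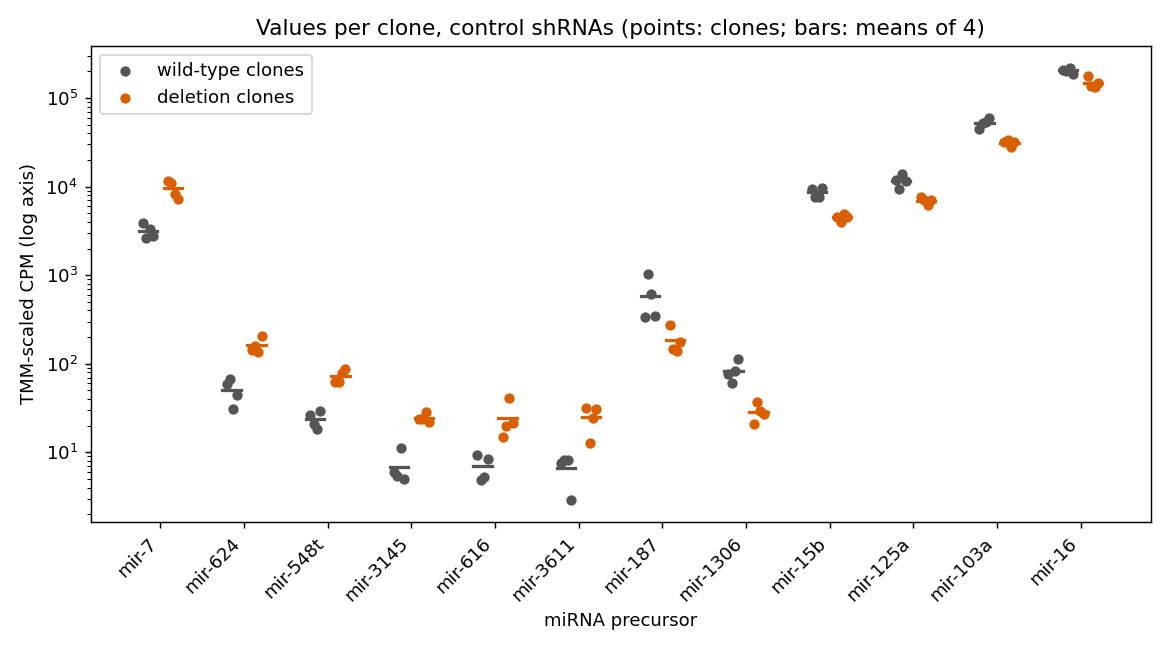
Points give the TMM-scaled CPM of each clone on a logarithmic axis for 12 precursors, grey for the 4 wild-type and orange for the 4 deletion clones, and bars are the means of 4. The 6 precursors on the left were higher and the 6 on the right lower in deletion clones, with no overlap of the genotypes in any of the 12.

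Next to mir-7 in abundance among the risers were mir-629, mir-590 and mir-625. The row mir-629, in an intron of TLE3 (chromosome 15, 70079372 to 70079468), was at 2620, 3034, 3321 and 3052 CPM in wild-type and 4504, 5760, 4890 and 5433 CPM in deletion clones. All 4 deletion clones were above all 4 wild-type clones, and the log2 fold change was 0.78 ± 0.17 (SE, edgeR adjusted p = 0.00922). The hairpin has a GC content of 59.8%, and the fold was 0.85 after the GC correction. For mir-590 (1698 ± 534 and 2762 ± 512 CPM, SD, n = 4) and mir-625 (1208 ± 185 and 1819 ± 314 CPM) the log2 fold changes were 0.70 and 0.59, and the genotypes overlapped. Both calls were lost after the GC correction, where the value of mir-590 was 0.07, and with DESeq2. The row mir-1304, in an exon of TAF1D, was tightly grouped, at 225 to 260.3 CPM in wild-type and 471.7 to 529 CPM in deletion clones (log2 fold change 1.05). Likewise mir-5699, in an intron of DIP2C with a GC content of 57.8%, was at 112 to 152 CPM and 294 to 338 CPM (1.20), and mir-641, in an intron of AKT2, at 84.9 to 97.9 CPM and 181 to 298 CPM (1.28). The rows mir-942 (in TTF2), mir-576 (in SEC24B) and mir-561 (in GULP1) also rose without overlap, with log2 fold changes of 1.01, 1.15 and 1.499. After the GC correction mir-576 lost its call, while mir-629, mir-1304, mir-5699, mir-641 and mir-942 kept theirs. These rows were chosen after their values were seen, as abundant risers outside the naming rule.

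Many members of the mir-548 family rose. Its hairpins derive from a transposable element with terminal repeats and are scattered over many chromosomes. Of its 53 rows, 42 passed the filter on low counts, 30 were higher (against 18.8% of all tested rows), 0 were lower, and the median log2 fold change was 1.23 (-0.03 over all tested rows). In 41 of the 42 the sign was positive, and mir-548aw at -0.40 was the exception. A row can pass the filter through the clones of either genotype alone, so rows scarce in wild-type clones may have entered through the deletion clones. The signs, calls and sums thus describe the rows that passed, and how far the filter shaped them was not tested. The rows were scarce, with means between 2.00 and 212 CPM. Summed over the 42 rows, the family had 1192, 1440, 993 and 964 CPM in wild-type and 2432, 2343, 2304 and 3329 CPM in deletion clones. Deletion clones thus had more in sum than any wild-type clone, as they did as a share of raw counts, which was 0.0811% to 0.122% against 0.259% to 0.360%. The row mir-548t, in an intron of GALNT7 (chromosome 4, 173268160 to 173268233), was at 26.4, 20.9, 18.2 and 29.2 CPM in wild-type and 61.7, 61.5, 78.5 and 87.2 CPM in deletion clones (log2 fold change 1.60 ± 0.28, SE, edgeR adjusted p = 0.00796). No wild-type clone came above 29.2 CPM.

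The 42 rows are not independent of each other. Mature sequences of the family are alike, mir-548aj, mir-548g and mir-548x share 1 in full, 11 rows have several loci, and reads may have been split among members by the authors' counting. Hairpin GC content in the family had a median of 34.96%. After the GC correction 9 rows were called, 0 of them lower, with a median of 0.57. Without clones 30 and 34, in which the blood markers were high, 7 of 42 were called and the median was 1.33. With any 1 clone left out between 23 and 28 were called. The 9 rows with a mature arm of seed AAAGUAA (among them mir-548b) held 6 higher rows, and the 6 with seed AAAAACU held 5. In the whole family 30 of 42 were higher (71.4%). Rows mir-548aq and mir-548j are in both seed groups.

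The count of higher rows varied with hairpin GC content, also outside that family. Of 138 tested rows with a hairpin GC content under 40%, 60 were higher (43.5%) and 5 lower (3.62%), with a median log2 fold change of 0.94. Of 93 rows at 60% or more, 1 was higher (mir-4467) and 4 lower (4.30%), with a median of -0.11. Over all tested rows 18.8% were higher and 7.09% lower. Leaving out mir-548, 32 of 101 rows under 40% were higher and 5 lower, with a median of 0.70. Without clones 30 and 34 these counts were 14 higher and 1 lower of 138, and 8 higher and 1 lower of 101, with medians of 0.99 and 0.55, and at 60% or more 0 higher and 1 lower of 93. In single clones, the median log2 CPM of rows under 40% minus that of rows at 60% or more was -0.52, -0.06, -1.07 and -1.19 in wild-type clones 52, 55, 57 and 67, and 0.39, 0.02, -0.20 and 0.30 in deletion clones 30, 34, 42 and 43. Wild-type clone 55 lay within the range of the deletion clones, so the genotypes overlapped in this contrast. GC content is also known to affect ligation and amplification of small RNAs, and a part of library preparation in these counts was not tested. The GC correction was fitted on these same rows and removes any trend with GC content, from library preparation or from the cells. It cannot tell these apart, and it draws the median of a GC class towards 0. After it the 101 rows under 40% outside mir-548 had 6 higher and 19 lower, at a median of -0.04. The correction left 46 of the 101 higher and 34 of the 38 lower calls in place.

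**Figure D3:**
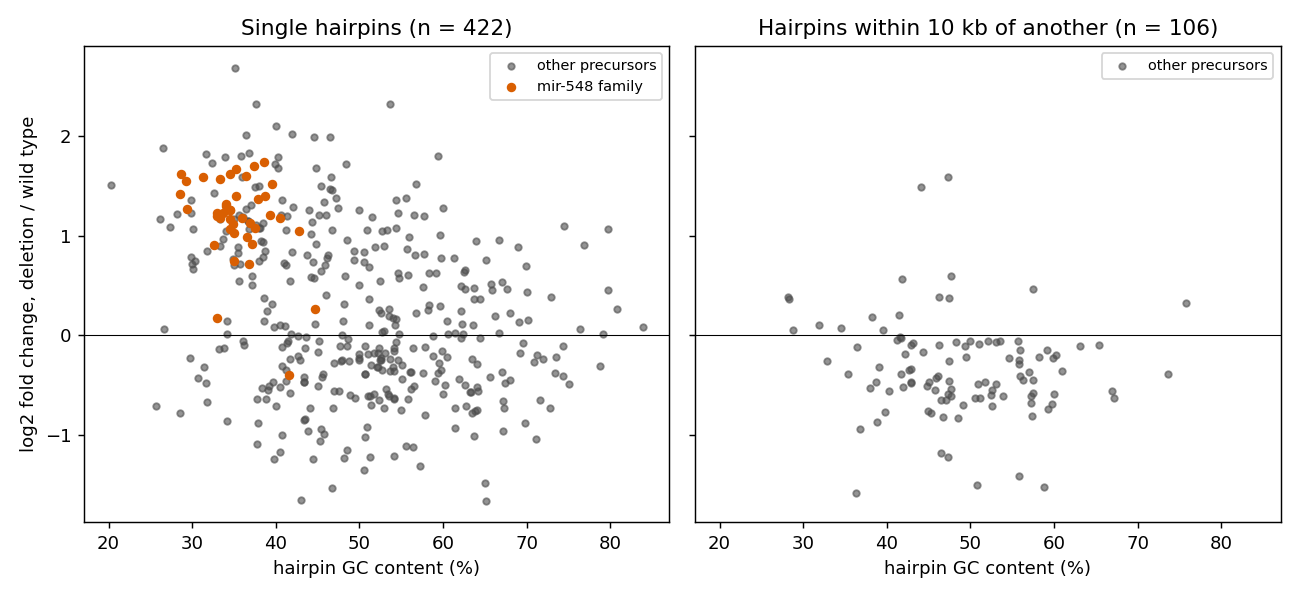
Log2 fold change, deletion over wild type, against the GC content of the hairpin (%) for 422 single hairpins (left) and 106 hairpins within 10 kb of another tested one on the same strand (right). Single hairpins of low GC content, with the mir-548 family in orange, reach the highest fold changes, while most clustered hairpins lie near or under 0, with mir-7 and mir-3179 as the points above 1 on the right.

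Few hairpins that lie close to another one were higher. Of 106 rows whose hairpin lay within 10 kb of another tested hairpin on the same strand, 2 were higher (mir-7 and mir-3179) and 20 lower, with a median log2 fold change of -0.39. Of 422 single hairpins 97 were higher (23.0%) and 17 lower (4.03%), with a median of 0.19. The shares over all tested rows were 18.8% higher and 7.09% lower. Clustered rows were also more abundant, at a median of 430.8 CPM against 19.1 CPM. Above 100 CPM, 1 of 66 clustered rows was higher and 16 lower, and of 118 single rows 15 were higher and 12 lower. GC content was similar in both classes, with medians of 47.5% and 48.0%. Under 45% GC, 1 of 36 clustered and 72 of 178 single rows were higher. The mir-548 family, with 30 of 42 tested rows higher, is not among the clustered rows and adds to the single ones. Outside that family, single hairpins in introns of protein-coding genes had 53 of 207 rows higher and 9 lower, with a median of 0.48. With spike-in scaling the medians were 0.10 and 0.65, and 0 clustered rows were lower. In the scaling alternatives the clustered median thus lay on either side of 0 while remaining under the single one. Without clones 30 and 34 it was -0.37 against 0.20, with 1 higher and 5 lower clustered rows and 29 higher and 3 lower single ones.

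The hairpins of mir-15b and mir-16 on chromosome 3 (160404588 to 160404825) lie in an intron of SMC4, in a transcript whose products limit cell-cycle genes and BCL2. The row mir-15b was at 9477, 7662, 7628 and 9746 CPM in wild-type and 4591, 3945, 4895 and 4556 CPM in deletion clones. The deletion clones were all well under the lowest wild-type clone, and the log2 fold change was -0.94 ± 0.17 (SE, edgeR adjusted p = 0.00796). The call was lost with spike-in scaling, at -0.47, and in none of the other 19 alternatives. The row mir-16, which a second locus on chromosome 13 also feeds, fell by 0.47 on the log2 scale, from 204600 ± 13610 to 147200 ± 19890 CPM (SD, n = 4). With spike-in scaling its value was 0.04 and with total miRNA scaling -0.06, and its call was also lost without clone 34, 42, 43, 57 or 67. As a share of raw miRNA counts mir-16 overlapped between genotypes, at 16.1% to 19.5% of a wild-type and 14.5% to 18.8% of a deletion library. The partner of the chromosome 13 locus, mir-15a, had 2921 ± 954 and 2569 ± 468 CPM (SD, n = 4) and did not pass the test. Ratios within a transcript need no scaling, and mir-15b relative to mir-16 was at a log2 ratio of -4.57 ± 0.26 in wild-type and -5.03 ± 0.21 in deletion clones (SD, n = 4; exact permutation test, two-sided, p = 0.0571).

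In the other lists of shared transcripts 0 members passed the test upward and some passed it downward, against 7.09% lower over all tested rows. These lists also hold related hairpins that lie alone, such as mir-130a and mir-125b. With spike-in scaling, which gave 0 lower rows, the medians were -0.03 for mir-17-92, 0.10 for mir-106b-25, 0.0059 for the mir-23, mir-27 and mir-24 transcripts and 0.17 for let-7 and its partners. In the mir-17-92 transcript, a growth-promoting cluster with MYC as a known activator, 1 of 6 rows was lower (mir-92a) and the median log2 fold change was -0.48. In its relative mir-106b-25, in an intron of MCM7, mir-93 was lower. It was at 57740 to 63780 CPM in wild-type and 35560 to 45840 CPM in deletion clones, with no overlap in TMM-scaled CPM. Without the TMM factors the genotypes overlapped in mir-93. The row mir-25 had 42090 ± 5529 and 39100 ± 2622 CPM (SD, n = 4) and did not pass the test. Of the 3 rows of mir-183-96-182, known from sensory cells, 2 were lower (mir-183 and mir-182). In the transcripts of mir-23, mir-27 and mir-24, 2 of 6 were lower (mir-23b and mir-24), and in the mir-130, mir-301 and mir-454 group 2 of 5 (mir-130a and mir-130b). The row mir-130b was at 2713 to 2894 CPM in the wild-type and 1209 to 1893 CPM in the deletion clones, the wild-type values lying close together. Of 14 rows of let-7 and its partners 3 were lower (mir-99b, mir-125a and mir-125b) and 0 of the let-7 rows themselves. Their median of -0.29 compares with -0.03 over all tested rows.

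Most abundant rows that fell did so by less than 2-fold. The row mir-4454 was an exception, at 1900 to 5229 CPM in wild-type and 1281 to 1883 CPM in deletion clones (log2 fold change -1.12), and its call was lost without clone 42, 43, 55 or 67 and with spike-in or total miRNA scaling. The row mir-125a, a regulator of blood-cell and growth-factor signalling that shares its transcript with mir-99b and let-7e, was at 11890, 9430, 13760 and 11530 CPM in wild-type and 7595, 6992, 6157 and 7102 CPM in deletion clones (log2 fold change -0.74). The call was lost without clone 57, and without clones 30 and 34. The row mir-103a, whose hairpins lie in introns of PANK2 and PANK3, genes of coenzyme A synthesis, had 44430, 51830, 53020 and 58720 CPM in wild-type and 32160, 33190, 27980 and 32060 CPM in deletion clones (log2 fold change -0.73 ± 0.14, SE, edgeR adjusted p = 0.00796). For both, the highest deletion clone was under the lowest wild-type clone in TMM-scaled CPM. Without the TMM factors the genotypes overlapped in both rows. With spike-in or total miRNA scaling neither passed the threshold, and their values with spike-in scaling were -0.22 and -0.24. The relative of mir-103a, mir-107, in an intron of PANK1 and with the same seed, fell by 0.56 on the log2 scale. Among the 20 most abundant rows the called ones were mir-103a, mir-191, mir-92a, mir-30e, mir-221, mir-93, mir-26a, mir-16 and mir-148b, and their folds ran from -0.73 to -0.47. In TMM-scaled CPM the genotypes overlapped in mir-191 and mir-221. In that order of naming, the calls were lost in 2, 13, 10, 7, 13, 4, 9, 11 and 15 of 20 alternatives.

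In some transcripts no member was called. The mir-424-450 transcript on chromosome X had 0 of 5 rows called and a median of 0.36, and the CLCN5 transcript had 0 of 8 called and a median of -0.18. Among 46 measured pairs of rows with hairpins in 1 transcript, some rows, such as mir-16, mir-92a and let-7a, also count loci elsewhere. The log2 ratio did not overlap between genotypes in 4 of the pairs (8.7%). These were mir-1306 to mir-3618, which was lower in deletion clones by 0.73 (written as a difference of -0.73), and mir-188 to mir-532, mir-660 to mir-532 and mir-25 to mir-93, which were higher by 0.43, 0.43 and 0.50. For mir-25 to mir-93 the ratio was -0.61, -0.74, -0.33 and -0.47 in wild-type and 0.05, -0.08, 0.02 and -0.13 in deletion clones, so that the deletion clones lay close to equal amounts. The exact permutation p of each of the 4 was 0.0286, the smallest that 70 arrangements can give, and with 46 pairs the adjusted value was 0.329. With this design 0 of 46 pairs passed the threshold after adjustment, and 4 had an unadjusted p under 0.05.

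The largest falls were in scarcer rows. The row mir-187 on chromosome 18 (35904818 to 35904926), in no annotated host, had 341, 1029, 609 and 343 CPM in wild-type and 273, 146, 138 and 177 CPM in deletion clones (log2 fold change -1.66 ± 0.37, SE, edgeR adjusted p = 0.00922). Wild-type clones 55 and 57 were far above the other wild-type clones, and clones 52 and 67 stood just above deletion clone 30. Rows mir-217, a pancreas miRNA, and mir-4421 fell by 1.59 and 1.51 on the log2 scale, at means of 14.97 and 11.5 CPM. The row mir-204, in an intron of TRPM3 and known from eye and kidney, fell by 1.24, and its call was lost without clone 34, 42, 43, 52, 57 or 67. The row mir-181b, whose family acts in lymphocyte signalling, fell by 0.79, from 787 to 1374 CPM in wild-type clones to 590.2 to 768 CPM in deletion clones. Its call was lost in 10 of 20 alternatives, among them without clone 30, 34, 42, 57 or 67, with control shRNA 2 alone and with spike-in scaling.

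A pair of hairpins, mir-1306 and mir-3618, lie in the DGCR8 transcript itself, where the Microprocessor is known to cut its own messenger RNA. The row mir-1306 was at 75.8, 60.6, 81.9 and 114 CPM in wild-type and 21.1, 37.4, 29.4 and 27.1 CPM in deletion clones, with no overlap and a log2 fold change of -1.53. The row mir-3618 had 37.2 ± 10.2 and 21.7 ± 6.15 CPM (SD, n = 4). Its log2 fold change of -0.77 did not pass the test although the genotypes did not overlap. Since the locus was edited in the deletion clones, an effect on the transcript and one on its processing cannot be told apart.

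Hairpins made without the Microprocessor are a reference within the same libraries. Mirtrons are released by splicing, and mir-320a and mir-484 come from short capped precursors. Of the 12 listed, 4 passed the filter on low counts (mir-484, mir-320a, mir-1226 and mir-877) and 0 were called. Their median log2 fold change was -0.43, beside -0.39 for clustered and 0.19 for single hairpins. The row mir-320a had 1046 ± 259 and 824 ± 162 CPM (SD, n = 4), and mir-484 had 383 ± 85.3 and 315 ± 116 CPM (SD, n = 4), in both cases with overlap. With control shRNA 1 alone mir-320a was called lower (log2 fold change -0.70, edgeR adjusted p = 0.0337), and with control shRNA 2 alone it was not (-0.12). With spike-in scaling the median of the 4 rows was 0.02. A list of 24 abundant miRNAs, drawn up as solitary hairpins, had a median of -0.44. It held 1 higher row and 7 lower ones, against 18.8% and 7.09% of all tested rows. The higher one was mir-7, of which the chromosome 15 locus lies near mir-1179 and so counts as clustered above. In the same list mir-21 had 7656 ± 1893 and 7467 ± 1884 CPM (SD, n = 4). The mir-144 and mir-451a pair, in which mir-451a is a known poor substrate beside mir-144, was scarce, and 0 of 2 rows were called.

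The 2 control shRNAs gave separate libraries of the same clones. Of the rows tested in both, 428 in number, the deletion effects correlated across miRNAs (Pearson's r = 0.86, Spearman's rho = 0.84). These values describe the spread between libraries that share their clones. Alone, control shRNA 1 gave 126 calls and control shRNA 2 gave 35, and 29 rows were called by both. The effect on mir-7 was 1.86 with control shRNA 1 and 1.36 with control shRNA 2. Over 185 rows of at least 100 CPM, each clone's root mean square distance from the other clones of its genotype was 0.40 to 0.57 on the log2 scale, and from those of the other genotype 0.59 to 0.80. Clones of a genotype varied alike, with a median SD of 0.33 in wild-type and 0.31 in deletion clones.

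The deletion effect was also read in the ERH-shRNA libraries of the same clones. There 0 of 569 rows passed the threshold (0.00%), with 87 at an unadjusted p under 0.05. To avoid reading calls back from the libraries that made them, the rows called with control shRNA 1 alone were followed into the other libraries. For the 84 higher ones the median log2 fold change was 1.47 with control shRNA 1, 1.03 with control shRNA 2 and 0.51 with ERH shRNAs. For the 41 lower ones it was -0.81, -0.62 and -0.28. The effect was smaller in size with ERH shRNAs than with control shRNA 2 for 82 of the 84 and 39 of the 41. The interaction, which tests whether the deletion effect differed between the arms, was past the threshold for 0 of 667 rows (0.00%) by edgeR, with 127 at an unadjusted p under 0.05. Single rows were thus not shown to differ.

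**Figure D4:**
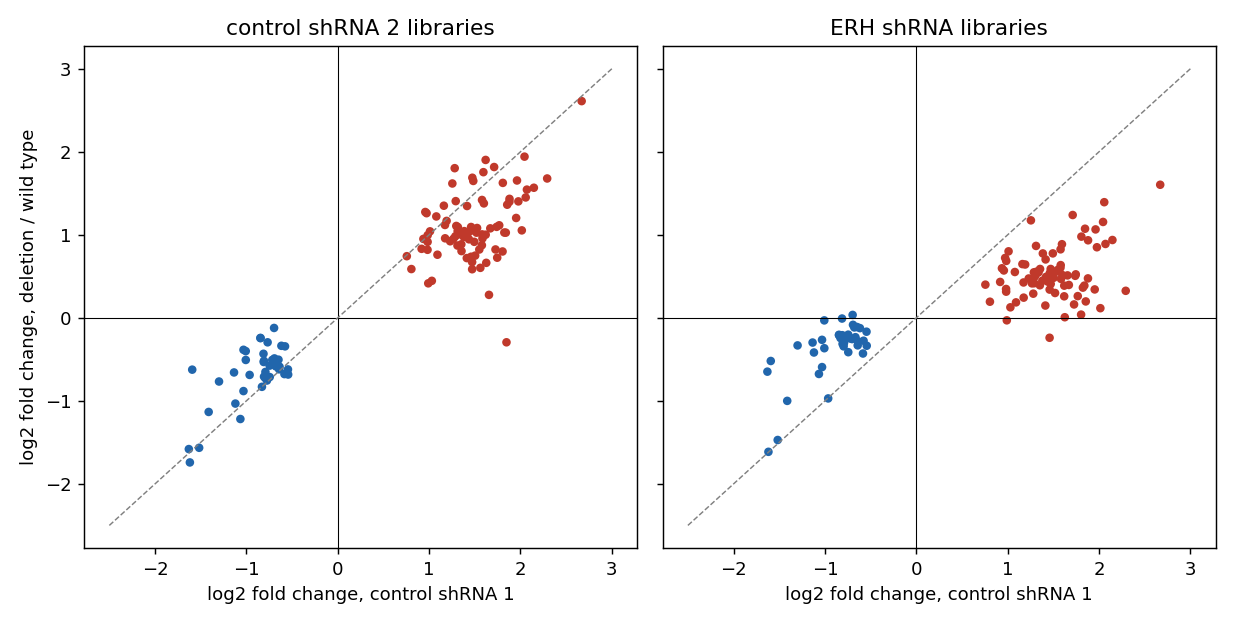
For rows called with control shRNA 1 alone (84 higher in red, 41 lower in blue), the log2 fold change of deletion over wild type in control shRNA 2 libraries (left) and in ERH shRNA libraries (right) is plotted against that with control shRNA 1. The dashed line marks equal values, and the points lie nearer to 0 on the right, with medians of 0.51 and -0.28 against 1.03 and -0.62.

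Levels in the ERH-shRNA libraries were scaled among themselves and are compared only within them. There mir-7 was at 11020 ± 5489 CPM in wild-type and 12630 ± 3391 CPM in deletion clones (SD, n = 4). The log2 fold change was 0.20 ± 0.31 (SE, edgeR adjusted p = 0.776), against 1.59 with control shRNAs. The row mir-15b was at 4019 ± 528 and 3345 ± 152 CPM (SD, n = 4), a value of -0.26 against -0.94. The interaction had an edgeR adjusted p of 0.0851 for both. The rows mir-187 and mir-1306 differed as much as before, by -1.61 against -1.66 and by -1.47 against -1.53, and their unadjusted interaction p from edgeR was 0.974 and 0.695.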

How the data were processed

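Small RNA of 8 293T clones was sequenced after library preparation with the QIAGEN QIAseq miRNA kit from 100 ng of total RNA to which 4 spike-in RNAs had been added, per the labels' protocols. The deposited table gives whole-number read counts per precursor name and library, called total read counts per the file headers. SAMtools is listed in the submitters' processing notes, and the aligner, annotation and use of molecular identifiers are not given in the sources used here, so amplification copies may be among the counts. Rows pool both arms and all loci of a name. Counts of mir-365a and mir-365b were nearly the same, so these rows are uncertain.

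The comparison and all lists were chosen with earlier results of these data known. The control libraries of a clone were summed (4 against 4) and tested with edgeR 4.0.16 in R 4.3.3 (glmQLFit and glmQLFTest, filterByExpr, TMM over miRNA rows). A row can pass that filter through the clones of either genotype alone. The interaction used 16 sums with the clone as a block, since the labels give each clone all vectors. CPM were scaled by TMM, and log2 CPM used a prior count of 2. Named were up to 14 rows per direction with the largest change among those with adjusted p under 0.05, at least 10 CPM and no overlap of genotypes, besides called rows among the 20 most abundant and members of lists. Exceptions are stated in the text. Ratios used counts plus 0.5 and pairs with a mean of at least 50 counts. Hairpin positions and GC content came from GENCODE 29 (GRCh38), in which 1454 of 1513 rows matched, and this build is not stated to be that of the counts. Alternatives were DESeq2 1.42.0, other scalings, filters, GC correction, single shRNAs, each library as its own sample, and clones left out. The main test was tried on 1 set of simulated counts for the 536 rows. It recovered 51.6% of changes of 1 and 97.8% of changes of 2 on the log2 scale, and called 4 unchanged rows. Smaller changes were not simulated, and a row that did not pass the test may still have changed.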

Additional observations from a re-analysis of the deposited data

Results flagged for a closer look

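Among 166 groups of 4 clones that were checked, 7 held a clone that stood far from the other 3 by Dixon's criterion, and chance gives about 1 in 20. Wild-type clone 67 was high in mir-204, at 6.1 (log2 CPM), and low in mir-3611, at 1.72. Deletion clone 34 was high in mir-4454, at 10.88. Among log2 ratios, deletion clone 30 stood apart in mir-27b to mir-23b, at 2.68, and in mir-502 to mir-532, at -4.44. Deletion clone 42 stood apart in mir-30c to mir-30e, at -1.44, and in let-7f to let-7a, at -0.98.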

How the results depend on the processing

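The count of 139 called rows was 76 with a mean of at least 100 counts, 35 with control shRNA 2 alone, and 39 without deletion clones 30 and 34, a choice made after seeing the data. With each library as its own sample and the control shRNA number as a replicate block it was 223, but that fit counts each clone as 2 samples and so overstates the number of replicates. The other scalings, filters and tools gave between 111 and 177, and leaving out 1 clone gave 83 to 129, the lowest without clone 34. The deletion effect under ERH shRNAs gave 0 or 1 calls when 1 clone was left out, 1 without clone 43. The interaction, fitted with the clone as replicate block, gave 0 with and without that block, and 0 to 35 with 1 clone left out (35 without clone 52, 3 without clone 67). The number of ratio pairs without overlap was 4 to 8 with 1 clone left out, where 3 against 4 clones separate more easily. With spike-in scaling mir-148b and mir-16 changed sign, at 0.009 and 0.037. Of 36 named rows 14 of 14 higher and 0 of 22 lower kept their calls with spike-in scaling, 14 and 4 with total miRNA scaling, and 11 and 21 after the GC correction. Fewer lower than higher calls remained when 1 clone was left out, 8 of 22 against 14 of 14 without clone 57. Some lower rows were named for abundance and had smaller folds, so the 2 sets are unlike. A lost call need not mean a changed fold, as mir-148b stayed at -0.50 to -0.37 with any 1 clone left out. The causes were not tested. Depth limits the rows under 10 CPM most.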
